A study of Saccharomyces cerevisiae with 15 samples.

Results

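The small (decoding) subunit of the ribosome of budding yeast, Saccharomyces cerevisiae, is built from 1 ribosomal RNA and a set of small-subunit ribosomal proteins encoded by the RPS genes and ASC1. Its genes were taken by name from a table of RNA levels: every RPS gene and ASC1, without RPS9A and RPS14B, which are not analysed here. This gave 55 genes of the 6659 in the table, and all 55 passed the filter on low values. Of the 55, 35 have an intron in their coding sequence and 20 have none. They form 22 complete pairs of paralogs (an A and a B copy), 9 single genes (RPS2, RPS3, RPS31 and ASC1 among them) and 2 genes whose partner is left out (RPS9B and RPS14A).

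Most ribosomal protein genes of yeast are kept as duplicates from an ancient genome duplication, and both copies usually encode proteins that are the same or nearly so. Their transcription is driven by Rap1, Fhl1, Ifh1 and Sfp1 under control of the TOR and protein kinase A pathways, and their messages are among the most abundant and most stable in growing cells. They also hold a large part of all introns of this organism, so anything that acts on splicing meets them often.

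The series asked how the histone variant H2A.Z bears on splicing, with RNA from haploid strains of the BY4741/2 background grown in rich glucose medium to mid-log phase and depleted of ribosomal RNA. The labels give the strains auxotrophies for histidine, leucine and uracil, and the 15 libraries cover 11 genotypes. XRN1, the main cytoplasmic 5′-to-3′ exonuclease, was deleted alone (xrn1, 2 libraries) or with HTZ1 or SWR1 (htz1 xrn1 and swr1 xrn1, 1 library each). UPF1, the helicase of nonsense-mediated decay, was deleted in the same 3 settings (upf1 2, htz1 upf1 1 and swr1 upf1 1). HTZ1, the gene of H2A.Z, was deleted in otherwise wild-type cells (htz1, 2 libraries), and SWR1, the remodeller that deposits H2A.Z, likewise (swr1, 1 library). The prp43 DAmP allele, built to lower the message of a helicase that releases spliced-out introns and acts in ribosome assembly, was used alone and with the htz1 deletion (1 library each). The wild type had 2 libraries, numbered 1 and 3. Libraries in which XRN1 and UPF1 were both present and PRP43 was unaltered (htz1 1, htz1 2, swr1, wild type 1 and wild type 3) are called the 5 intact libraries below.

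Values are RPKM (reads scaled by gene length and by library size), and library totals implied by them ran from 7160196 to 57373610 reads. HTZ1, SWR1, XRN1 and UPF1 were at most 0.290 RPKM wherever their deletion was labelled, and PRP43 stood at 42.7 and 55.4 RPKM in the prp43 DAmP libraries against 84.8 to 157 elsewhere. Libraries differed in other ways too. MF(ALPHA)1, the alpha-factor gene of MATalpha cells, was at 1968 to 2942 RPKM in the 3 swr1 libraries and wild type 1, while no library among the other 11 exceeded 4.72. Of the marker genes that differ between BY4741 and BY4742, MET17 was at most at 0.361 RPKM in 7 libraries and at 131 to 260.2 in 8, and LYS2 was at 43.5 to 84.5 RPKM in 5 libraries and at most at 0.298 in 10. The replicates of xrn1, and those of htz1, differed from each other in both genes. The part of these strain differences in the results was not tested. Reading frames of the ribosomal DNA repeat held 12.2 to 21.3% of the summed RPKM in 5 libraries (htz1 1, swr1, htz1 upf1, swr1 upf1 and swr1 xrn1) and 0.0189 to 3.41% in the other 10. The median RPKM of all genes was 60.0 to 63.1 in the 4 xrn1 libraries, 35.5 to 41.7 in the 4 upf1 libraries and 23.6 to 33.8 in the 5 intact libraries. Since RPKM is a share of a library, the small-subunit genes are given below both as measured and against that median. In such bulk samples, fewer cells of a kind and less RNA per cell cannot be told apart.

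Together the 55 genes held 4.21 to 6.73% of the summed RPKM in the 4 xrn1 libraries, 5.37 to 7.86% in the 4 upf1 libraries, 7.41 and 8.03% in the prp43 DAmP libraries and 5.93 to 8.91% in the 5 intact libraries. The lowest share was that of swr1 xrn1 and the highest that of wild type 3. Their summed level was 39285 to 61131 RPKM in the xrn1 libraries, below every intact library (69667 to 91544 RPKM). Across the 55 genes, Spearman's rho between replicate libraries was 0.952 for xrn1 and 0.991 for upf1. The pair of xrn1 libraries differed most, with a median of 0.47 on the log2 scale between xrn1 1 and xrn1 2 over the genes. Wild type 1 lay below wild type 3 by a median of 0.35.

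**Figure D1:**
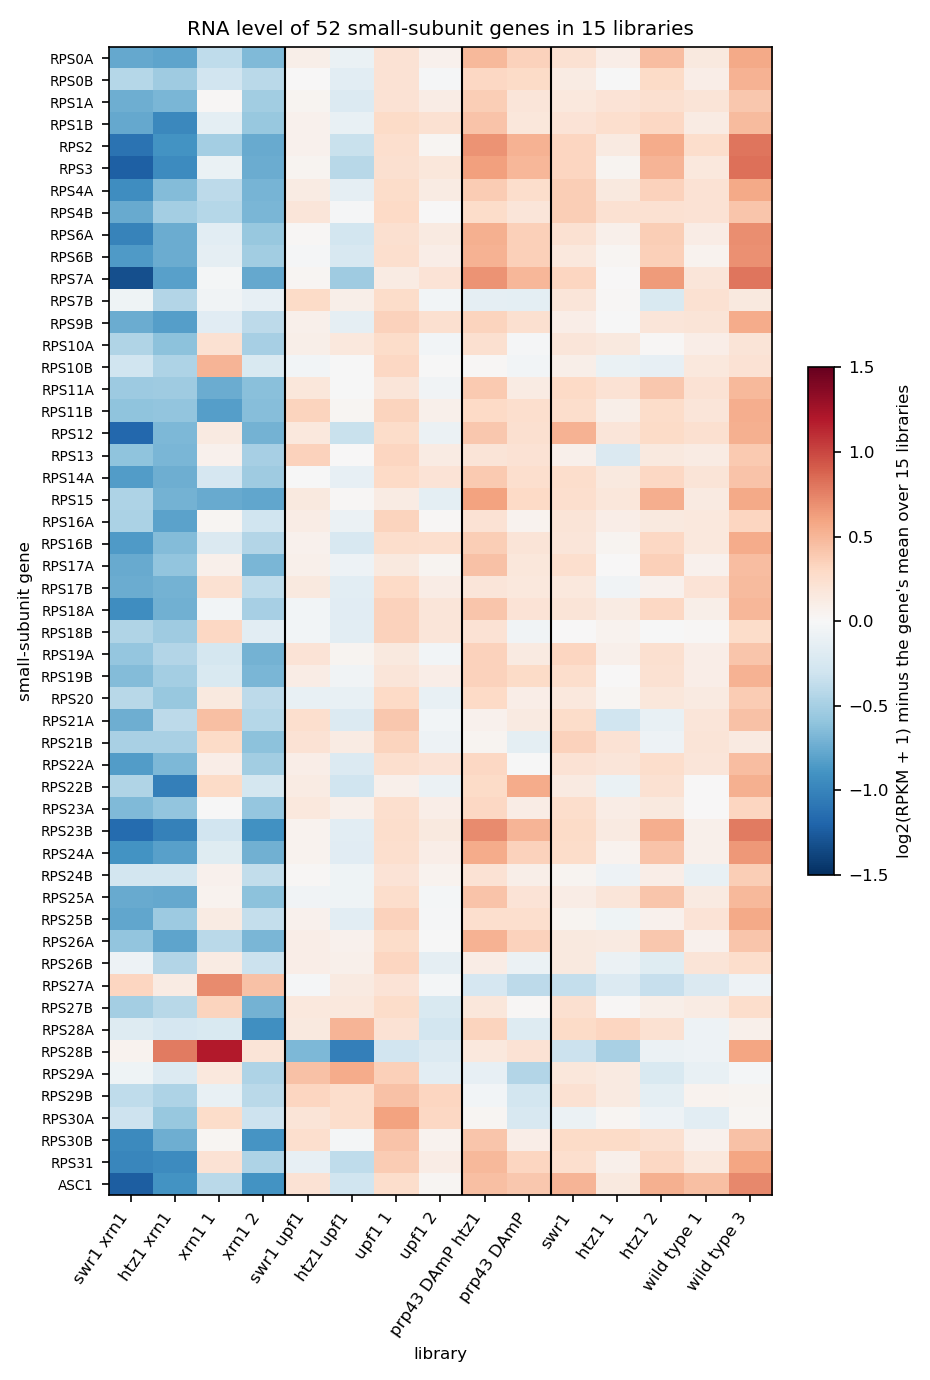
The RNA level of 52 of the genes (rows) in the 15 libraries (columns), as log2(RPKM + 1) minus the mean of that gene over the 15 libraries, on a colour scale from blue (lower) to red (higher). The 4 xrn1 columns at the left are lower than the 5 intact columns at the right for most genes, while RPS27A and RPS28B stand out as rows that are higher in xrn1 columns.

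The most abundant message was RPS31 (YLR167W), which encodes a fusion of ubiquitin to a small-subunit protein, with a geometric mean over 15 libraries of 4441 RPKM and a range from 2249 (swr1 xrn1) to 6668 RPKM (wild type 3). Among the next were RPS20 at 2815 RPKM, RPS1B at 2471 RPKM and RPS2, a protein of the mRNA entry channel, at 2365 RPKM. At the other end stood RPS22B (YLR367W) at 188 RPKM, RPS29A at 259.9 RPKM, RPS29B at 284 RPKM, RPS28B at 372 RPKM and RPS21A at 396 RPKM. The median of the 55 was 950.3 RPKM. RPS22B ranged from 91.5 RPKM in htz1 xrn1 to 278 RPKM in prp43 DAmP, so even its highest library lay below the lowest of RPS31.

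The 35 genes with introns had a median level of 777 RPKM and the 20 without introns one of 1676 RPKM. These values count introns in the gene length. Scaled by exon length alone, the genes with introns had a median of 1714 RPKM, and the median of all 55 was 1694 RPKM. RPS31 kept the first place, while RPS27B moved to place 4 (2658 RPKM) and RPS14A to place 5. The span of RPS22B holds the snoRNA gene SNR44 and that of ASC1 holds SNR24, each on the same strand, and whether reads of these were counted with the host gene was not tested.

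The sequences in and around these genes can be set beside those of all genes. Of 35 introns, 25 begin with GTATGT (71.4%, against 73.0% of 281 nuclear introns), 7 with GTACGT (20%, against 9.25%) and 3 with GTATGA. The branch site TACTAAC was found in 33 of 35 introns, with RPS9B and RPS21A the exceptions, and in 82.6% of the 281. Intron length ran from 256 to 551 bases with a median of 401. Upstream, a core of the binding motif of Rap1, the main activator of these genes, was searched as ACCCNNACA on both strands of a window of 300 bases that starts 400 bases before the start codon. It was present in 13 of 55 windows (23.6%), against 3.93% of the windows of 6001 genes. GACGCA, a core of the motif of Fhl1, was present in 5 of 55 (9.09%), against 6.82% of all windows. No match of one motif overlapped a match of the other. A match is a description of the letters and not of binding. RPS11B and RPS16A each held 2 Rap1 matches in the window, and RPS11B also held 2 Fhl1 matches, which are left in lower case. Both windows are printed to show how the Rap1 matches lie, with the Rap1 matches in capitals. The sequences run 5′ to 3′ on the gene's strand and are from the R64 reference genome, the same build as sacCer3. They are RPS11B at chrII:332431-332730 (+ strand) and RPS16A at chrXIII:551528-551827 (+ strand).
RPS11B: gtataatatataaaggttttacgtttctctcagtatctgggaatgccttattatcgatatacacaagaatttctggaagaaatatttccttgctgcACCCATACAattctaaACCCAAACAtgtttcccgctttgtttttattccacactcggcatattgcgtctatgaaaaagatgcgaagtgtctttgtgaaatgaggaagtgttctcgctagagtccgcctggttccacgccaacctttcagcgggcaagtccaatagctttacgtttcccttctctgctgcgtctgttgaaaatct
RPS16A: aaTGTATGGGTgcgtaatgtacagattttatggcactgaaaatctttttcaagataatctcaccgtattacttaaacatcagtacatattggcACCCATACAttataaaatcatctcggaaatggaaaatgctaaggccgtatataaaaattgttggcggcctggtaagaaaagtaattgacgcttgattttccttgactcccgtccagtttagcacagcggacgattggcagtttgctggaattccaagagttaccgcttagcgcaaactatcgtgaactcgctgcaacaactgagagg
In RPS11B both Rap1 matches are on the coding strand and close together. In RPS16A one is on the opposite strand at the far end of the window.

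Without XRN1, most small-subunit messages were at a lower RPKM while most other messages were at a higher one. Averaged over 3 H2A.Z states (4 xrn1 libraries against the 5 intact ones), 46 of 55 genes fell, 2 rose and 7 did not pass the test (limma on log2(RPKM + 1), Benjamini-Hochberg adjusted p under 0.05 over all 6495 genes). Over all genes 81.3% were called, 7.19% lower and 74.1% higher. The median log2 change was -0.77 for the 55 genes and 0.99 for all genes, and each of the 55 lay below the median of all genes. For 34 genes the 4 xrn1 libraries were all below the 5 intact ones, for 1 they were all above, and for 20 they overlapped. How many of all genes separate in this way was not counted. The labels do not state whether replicate libraries stem from different cultures. The p-values therefore reflect the spread among these samples alone, and that spread may be technical.

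ASC1 (YMR116C), the yeast RACK1 scaffold on the subunit's head, fell furthest. It stood at 1068 and 755 RPKM in xrn1, 755 in htz1 xrn1 and 598 in swr1 xrn1, against 1555 and 2044 RPKM in htz1, 2013 in swr1, and 1921 and 2321 in the wild type. All 4 xrn1 libraries lay below all 5 intact ones (log2 change -1.35 ± 0.17 SE, adjusted p = 6.3e-05 by limma). RPS2 (YGL123W) was at 1658 and 1406 RPKM in xrn1, 1271 in htz1 xrn1 and 1101 in swr1 xrn1, against 2592 and 3476 RPKM in htz1, 2969.6 in swr1, and 2831 and 4114 in the wild type. Its groups did not overlap either (log2 change -1.25 ± 0.17 SE, adjusted p = 8.6e-05 by limma). RPS23B (YPR132W), one copy of a protein of the decoding centre, was at 574 and 375 RPKM in xrn1, 348 in htz1 xrn1 and 315 in swr1 xrn1, against 774 and 1022 RPKM in htz1, 861 in swr1, and 741 and 1209 in the wild type (log2 change -1.22 ± 0.20 SE, adjusted p = 0.000316 by limma). For each of these genes xrn1 1 was the highest of the xrn1 libraries and wild type 3 the highest of the intact ones.

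Among proteins of the head, where the mRNA enters between RPS3 and the body and leaves past RPS28, 19 of 23 genes fell. RPS3 fell by 1.15 on the log2 scale, RPS15 by 1.01 and RPS12 by 0.98. RPS31 fell by 0.86, RPS16B by 0.81 and RPS16A by 0.61, RPS18A by 0.81, RPS25A by 0.80 and RPS25B by 0.59. RPS19B fell by 0.76 and RPS19A by 0.73, RPS17A by 0.73 and RPS17B by 0.62. RPS28A fell by 0.54, RPS20 by 0.52, RPS10A by 0.49 and RPS29B by 0.42. Not called in the head were RPS18B (-0.31), RPS10B (-0.22) and RPS29A (-0.14).

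Among proteins of the body and platform, 27 of 32 genes fell. RPS7A fell by 1.14, RPS4A by 1.01 and RPS4B by 0.89. RPS24A fell by 0.97, RPS0A by 0.97 and RPS0B by 0.64. RPS11B fell by 0.95 and RPS11A by 0.93, and RPS6A, a copy of the protein phosphorylated downstream of TOR, by 0.93 and RPS6B by 0.84. RPS30B fell by 0.91, RPS1B by 0.91 and RPS1A by 0.74. RPS14A fell by 0.87, RPS26A, a protein of the mRNA exit channel, by 0.86, RPS9B by 0.78 and RPS22A by 0.77. RPS23A fell by 0.65, RPS22B by 0.59, RPS13 by 0.57, RPS21B by 0.52, RPS27B by 0.50 and RPS7B by 0.29. Not called in the body were RPS21A (-0.43), RPS26B (-0.30), RPS24B (-0.29) and RPS30A (-0.19).

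The 2 genes that rose are single copies of their pairs. RPS27A (YKL156W), a zinc-finger protein of the body, stood at 687 and 570.3 RPKM in xrn1, 457 in htz1 xrn1 and 528 in swr1 xrn1, against 364 and 330.0 RPKM in htz1, 327 in swr1, and 362 and 399 in the wild type. All 4 xrn1 libraries lay above all 5 intact ones (log2 change 0.61 ± 0.13 SE, adjusted p = 0.00127 by limma). RPS28B (YLR264W) stood at 847 and 424 RPKM in xrn1, 638 in htz1 xrn1 and 385 in swr1 xrn1, against 264 and 349 RPKM in htz1, 296 in swr1, and 353 and 563 in the wild type. Here xrn1 1 was highest and wild type 3 overlapped the xrn1 libraries (log2 change 0.61 ± 0.24 SE, adjusted p = 0.0407 by limma). As background, the RPS28B message of yeast is known to be decapped through its own protein and Edc3. Against the median of all genes both lay below (-0.38 each), and with every library scaled to the same median log ratio they were at -0.34 each and not called, 53 of the 55 genes were lower and none was higher. With that scaling, 1883 of all 6495 genes were called lower, and 51.7% of all calls were higher genes, in place of 91.2%.

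The call of RPS28B was lost without any one of wild type 1, xrn1 1, swr1, htz1 1, swr1 xrn1 or htz1 xrn1 (log2 change 0.41 to 0.83, adjusted p up to 0.219), while that of RPS27A held in all 9 such fits. In all, 40 of the 48 calls held whichever library was left out. The others that were lost at least once were RPS7B, RPS10A, RPS20, RPS21B, RPS22B, RPS27B and RPS29B. Without the 5 libraries rich in ribosomal DNA 39 genes fell and 1 rose, and the median change was -0.72 for the 55 genes and 1.04 for all genes. Of 20 general stress genes, 17 rose and 1 fell in the same comparison, with a summed level of 2497 to 5245 RPKM in the xrn1 libraries and 1276 to 3596 RPKM in the intact ones. The part of this in the results for the small-subunit genes was not tested.

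**Figure D2:**
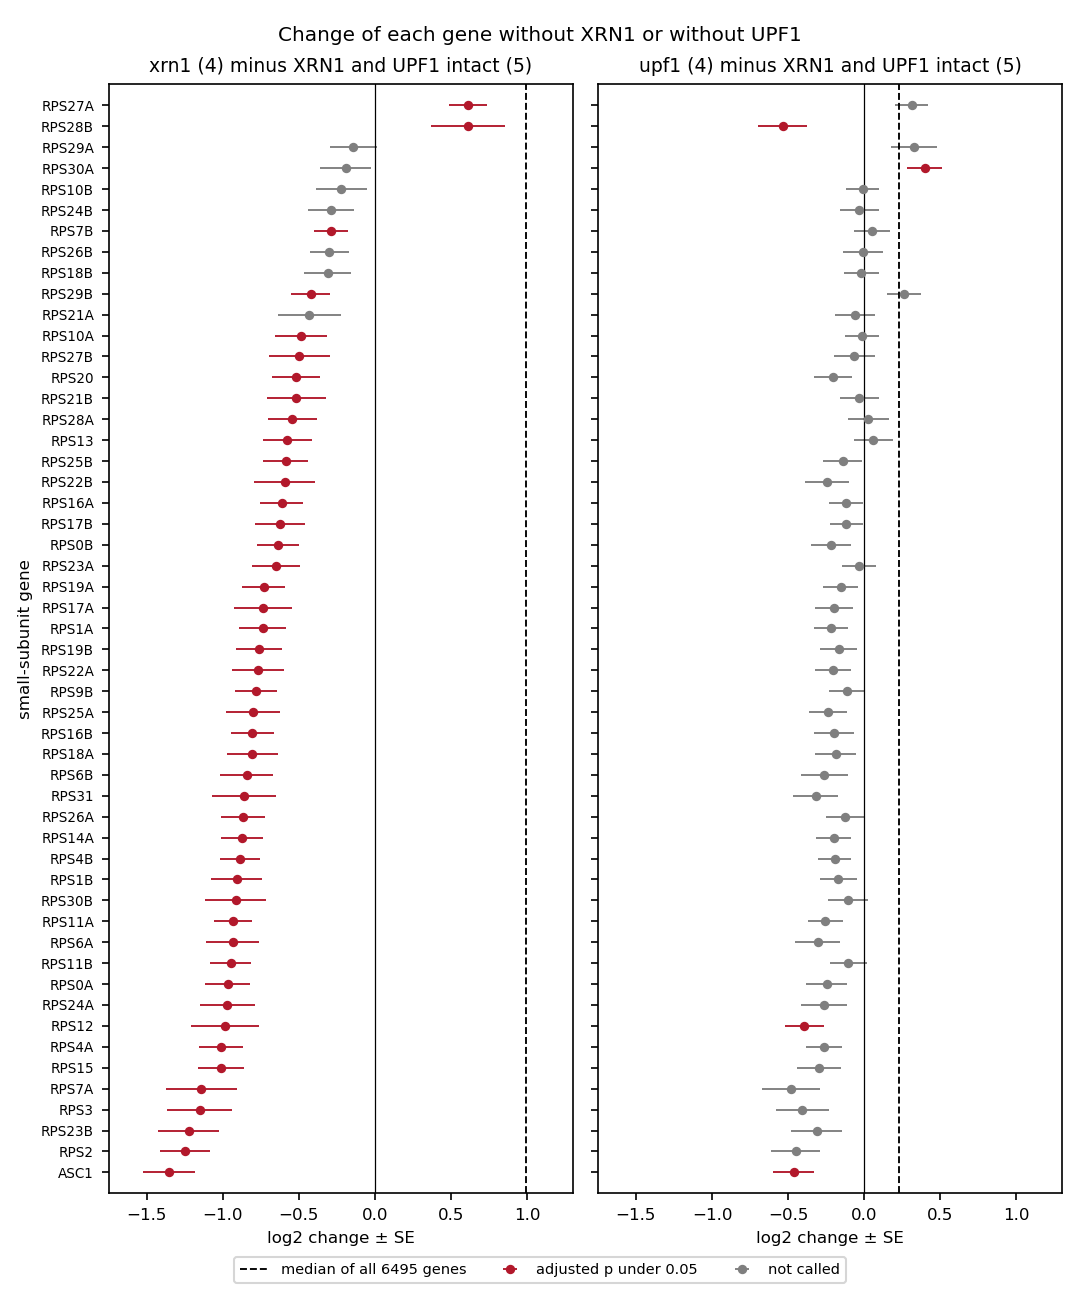
The log2 change of 52 of the genes in the 4 libraries without XRN1 (left) and the 4 without UPF1 (right), each against the 5 intact libraries, with the SE from limma. Red points passed the test, and the dashed line is the median of all genes (0.99 and 0.23). At the left all 52 points lie below that line, with RPS27A and RPS28B apart from the rest, and at the right RPS28B and RPS30A lie at opposite ends.

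Most genes were lower in each of the 3 H2A.Z states. Within genotypes, the median of the 55 genes was -0.59 in xrn1 against the wild type, -0.85 in htz1 xrn1 against htz1 and -0.90 in swr1 xrn1 against swr1, beside 0.96, 1.00 and 0.99 for all genes. Genes with introns changed by a median of -0.73 and genes without by -0.83. Short messages changed less: the 10 genes with at most 300 bases of coding exon had a median of -0.43 and the 45 longer ones one of -0.81. Over the 55 genes, the change and the log2 exon length had a Pearson r of -0.64, and the change and the log2 level one of -0.54. These are descriptions over genes that share libraries.

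Other genes of the same machinery can be set beside these counts. Of the 81 large-subunit ribosomal protein genes, 45 of 53 with introns and 26 of 28 without fell, and 1 of each rose. RPL22B, whose unspliced message is a known target of decay in yeast, was one of these (log2 change 2.31 ± 0.14 SE, adjusted p = 4e-06 by limma). Of 17 regulators of ribosomal protein transcription, 15 rose and none fell, among them FHL1 (log2 change 1.49), SFP1 (1.48) and IFH1 (1.25). The median of the 17 was 1.00, beside 0.99 for all genes, with 9 regulators above the median of all genes and 8 below. Of 72 ribosome biogenesis factors, 19 rose and 4 fell, with a median of 0.23. Of 14 import and assembly chaperones of ribosomal proteins, 3 rose (SXM1, PSE1 and YAR1) and 1 fell (KAP123, an import receptor of ribosomal proteins, log2 change -0.71).

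Loss of UPF1 moved few small-subunit messages past the test. Of 55 genes 1 rose, 3 fell and 51 did not pass (4 upf1 libraries against the same 5 intact ones, limma as above), where 29.7% of all genes were called, 28.8% higher and 0.847% lower. On simulated data this fit called 21.4% of genes changed 1.5-fold and 65.7% of those changed 2-fold, so such changes could be missed. The median log2 change was -0.19 for the 55 genes and 0.23 for all genes, and 51 of the 55 lay below the median of all genes. RPS30A (YLR287C-A), one copy of a protein near the decoding centre, stood at 1168 and 954 RPKM in upf1, 924 in htz1 upf1 and 875 in swr1 upf1, against 780.2 and 729.9 RPKM in htz1, 723 in swr1, and 685 and 782 in the wild type. All 4 upf1 libraries lay above all 5 intact ones (log2 change 0.40 ± 0.12 SE, adjusted p = 0.0304 by limma). RPS28B stood at 306 and 323 RPKM in upf1, 183 in htz1 upf1 and 233 in swr1 upf1, against 264 and 349 RPKM in htz1, 296 in swr1, and 353 and 563 in the wild type. Its groups overlapped (log2 change -0.54 ± 0.16 SE, adjusted p = 0.0361 by limma).

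ASC1 also fell, at 1689 and 1441 RPKM in upf1, 1149 in htz1 upf1 and 1639.6 in swr1 upf1 (log2 change -0.46 ± 0.13 SE, adjusted p = 0.0273 by limma, against the intact values given above). RPS12 (YOR369C), a small protein of the head, was at 2244 and 1747 RPKM in upf1, 1473 in htz1 upf1 and 2058 in swr1 upf1, against 2095 and 2263 RPKM in htz1, 2663 in swr1, and 2183 and 2684 in the wild type (log2 change -0.39 ± 0.13 SE, adjusted p = 0.0467 by limma). Both genes overlapped with the intact libraries. Next to these, RPS7A was at -0.48, RPS29A at 0.33 and RPS27A at 0.31, none of them called. Of the other lists, 2 of 72 biogenesis factors, 2 of 17 regulators, 1 of 14 chaperones and 2 of 81 large-subunit genes (RPL22B and RPL28) rose, and none of these lists had a gene that fell. Of 20 general stress genes 3 rose and 3 fell, with a median of -0.43. The upf1 and xrn1 comparisons share their 5 intact libraries.

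None of these 4 calls held in every fit with a library left out. No gene was called without swr1, swr1 upf1, htz1 upf1 or wild type 3, there were 2 calls without upf1 1 and 10 without wild type 1, and there were none without the 5 libraries rich in ribosomal DNA. With every library scaled to the same median log ratio RPS30A was at 0.05 and not called and 7 genes were lower, while ASC1, RPS12 and RPS28B kept their calls. That scaling made 52.2% of all calls higher genes, in place of 97.1%, and 1243 of all 6495 genes were called lower.

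Set against each other, the 4 xrn1 and the 4 upf1 libraries differed in 40 of the 55 genes. In xrn1, 39 were lower and 1 was higher, where 61.8% of all genes were called, 8.62% lower and 53.2% higher. The median log2 difference, xrn1 minus upf1, was -0.61 for the 55 genes and 0.51 for all genes. RPS23B (-0.92 ± 0.17 SE), ASC1 (-0.91 ± 0.19 SE) and RPS11B (-0.86 ± 0.14 SE) were furthest below. RPS28B was the 1 gene above: its xrn1 values (847, 424, 638 and 385 RPKM) were all over its upf1 values (306, 323, 183 and 233 RPKM), at a log2 difference of 1.10 ± 0.25 SE and an adjusted p of 0.00605 by limma. RPS27A (0.33) did not pass, and the lowest difference in size was that of RPS10B (-0.19, not called). Not called were also RPS7B, RPS10A, RPS12, RPS18B, RPS20, RPS21A, RPS21B, RPS22B, RPS24B, RPS25B, RPS26B, RPS27B and RPS29A.

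For 23 genes all 4 xrn1 libraries were below all 4 upf1 ones, for 1 above, and 31 overlapped. Here too, the share of all genes that separate was not counted. The number of called genes was 25 without swr1 xrn1 or without swr1 upf1, and 25 of the 40 calls held in every such fit. Without the libraries rich in ribosomal DNA, which leaves 2 residual degrees of freedom, 5 genes were called. With a common median log ratio 53 genes were lower, beside 1980 of all 6495 genes, and RPS28B (0.48) was not called. With that scaling 42.0% of all calls were higher genes, in place of 86.1%.

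The paralog pairs show what a level of the whole family hides. The log2 ratio of the A to the B copy had the same sign in all 15 libraries in 14 of the 22 pairs, with A higher in 9 and B higher in 5. In 4 pairs the mean ratio was over 2-fold: RPS22 (log2 3.17, A higher), RPS28 (1.92, A higher), RPS25 (1.22, A higher) and RPS26 (1.19, A higher). Scaled by exon length it was 6 pairs, with RPS22 at 2.01. At the other end RPS6 lay at -0.02, RPS18 at 0.07 and RPS23 at 0.09. In RPS22 the 2 copies differ in build: RPS22A has no intron, while RPS22B carries an intron in its coding sequence and another before it. As background, the nuclease RNase III of yeast is known to cut intron RNA of RPS22B. RPS22A ranged from 944 to 2330.4 RPKM over the 15 libraries.

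Most ratios moved little. The SD of the log2 ratio over the 15 libraries ran from 0.0535 (RPS6) to 0.81 (RPS28), with a median of 0.20 over pairs, beside a median SD between replicates of 0.11. The copies of RPS6 share 72.7% of their runs of 50 bases, those of RPS4 share 47.7% and those of RPS24 share 38.5%, so reads may have been split between them and their ratios are uncertain. In 27 of the 55 genes no run of 50 bases occurs elsewhere in the genome, RPS27 and RPS28 copies among them.

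The ratios that varied most were those of RPS28 (SD 0.81), RPS7 (0.59), RPS27 (0.51) and RPS30 (0.36). RPS7A over RPS7B had a log2 ratio of 0.85 and 0.19 in xrn1, 0.46 in htz1 xrn1 and -0.42 in swr1 xrn1, against 0.82 and 1.69 in htz1, 0.97 in swr1, and 0.78 and 1.49 in the wild type. Replicates of one genotype differed here by up to 0.88. RPS30A over RPS30B had 0.88 and 1.20 in xrn1, 0.80 in htz1 xrn1 and 1.27 in swr1 xrn1, and 0.80 and 0.88 in upf1, 0.92 in htz1 upf1 and 0.56 in swr1 upf1, against 0.21 to 0.39 in the 5 intact libraries. The xrn1 and the upf1 libraries were thus all above the intact ones, and the prp43 DAmP libraries (0.28 and 0.23) were not.

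RPS27B was the higher copy in all libraries but xrn1 2. The log2 ratio of RPS27A over RPS27B was -0.60 and 0.17 in xrn1, -0.44 in htz1 xrn1 and -0.14 in swr1 xrn1, against -1.58 to -0.78 in the 11 libraries with XRN1. All 4 xrn1 libraries thus lay above all 11 others, also in the pair RPS23. They lay below all 11 others in 6 pairs, RPS0, RPS10, RPS18, RPS24 and RPS26 among them, and overlapped in the other 14 pairs. In RPS26 the A copy led by 0.67 to 0.84 on the log2 scale in the xrn1 libraries and by 1.06 to 1.78 in the others, and in RPS24 the ratio was -0.37 to 0.02 in the xrn1 libraries and 0.16 to 0.60 in the others. These ratios are a description with no test.

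**Figure D3:**
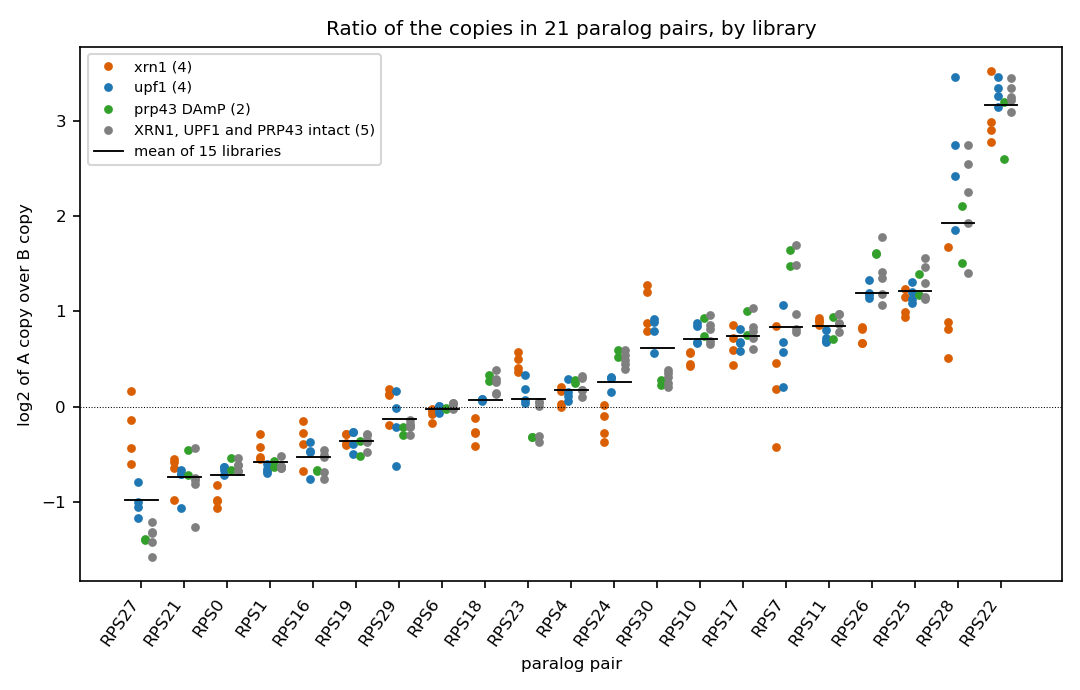
The log2 ratio of the A copy to the B copy in each of 21 paralog pairs, ordered by their mean over 15 libraries (black line), with 1 point for each library coloured by background. RPS22 and RPS28 lie highest, RPS27 lowest, and the xrn1 points (orange) of RPS27 lie above all other points of that pair.

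RPS27 and RPS28 are the pairs in which the copies went opposite ways without XRN1, and their coding sequences show what a read can tell apart. They are printed 5′ to 3′ on the coding strand from R64, with introns taken out and with the bases that differ between the copies in capitals. RPS28A lies at chrXV:648804-649007 (- strand), RPS28B at chrXII:673131-673334 (+ strand), RPS27A at chrXI:158613-159212 (+ strand) and RPS27B at chrVIII:147871-148669 (- strand), each as a single coding exon or, for RPS27, as 2 exons around an intron.
RPS28A: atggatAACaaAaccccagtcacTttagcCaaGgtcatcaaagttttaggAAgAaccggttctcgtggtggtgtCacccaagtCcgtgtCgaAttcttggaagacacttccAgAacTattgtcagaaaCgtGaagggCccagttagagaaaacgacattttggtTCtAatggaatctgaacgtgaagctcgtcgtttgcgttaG
RPS28B: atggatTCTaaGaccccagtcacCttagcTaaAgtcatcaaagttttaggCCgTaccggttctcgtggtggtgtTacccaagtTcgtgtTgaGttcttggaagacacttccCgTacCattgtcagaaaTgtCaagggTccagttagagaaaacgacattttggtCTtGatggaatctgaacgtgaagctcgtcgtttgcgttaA
RPS27A: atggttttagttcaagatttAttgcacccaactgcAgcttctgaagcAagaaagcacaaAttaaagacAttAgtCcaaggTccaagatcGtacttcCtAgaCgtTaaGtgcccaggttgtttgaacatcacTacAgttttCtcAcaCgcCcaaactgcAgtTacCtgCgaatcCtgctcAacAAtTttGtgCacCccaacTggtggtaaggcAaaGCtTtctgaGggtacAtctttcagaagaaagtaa
RPS27B: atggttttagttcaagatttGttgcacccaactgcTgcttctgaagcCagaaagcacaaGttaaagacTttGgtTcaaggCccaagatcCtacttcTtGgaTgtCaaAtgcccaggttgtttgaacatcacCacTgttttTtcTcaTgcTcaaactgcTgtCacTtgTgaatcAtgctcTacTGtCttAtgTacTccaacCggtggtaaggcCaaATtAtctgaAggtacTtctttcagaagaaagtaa
The RPS28 copies differ at 24 of 204 bases (88.2% identity) and the RPS27 copies at 39 of 249 (84.3%). The differing bases are spread over the whole length.

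RPS28A (YOR167C), a copy of a protein on the mRNA exit side, was the higher copy in all 15 libraries. Its log2 ratio over RPS28B was 0.51 and 0.81 in xrn1, 0.89 in htz1 xrn1 and 1.68 in swr1 xrn1. It was 2.42 and 1.85 in upf1, 3.46 in htz1 upf1 and 2.75 in swr1 upf1. In the prp43 DAmP background it was 2.11 with the htz1 deletion and 1.51 without. In the intact libraries it was 2.74 and 2.25 in htz1, 2.54 in swr1, and 1.92 and 1.40 in the wild type. The ratio was higher without HTZ1 or SWR1 in each of 7 differences within a background, by 0.23 (htz1 xrn1 minus xrn1) to 1.32 (htz1 upf1 minus upf1), each of 1 or 2 libraries against 1 or 2. Neighbouring differences share their reference libraries, and replicates of one genotype differed in this ratio by up to 0.57.

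**Figure D4:**
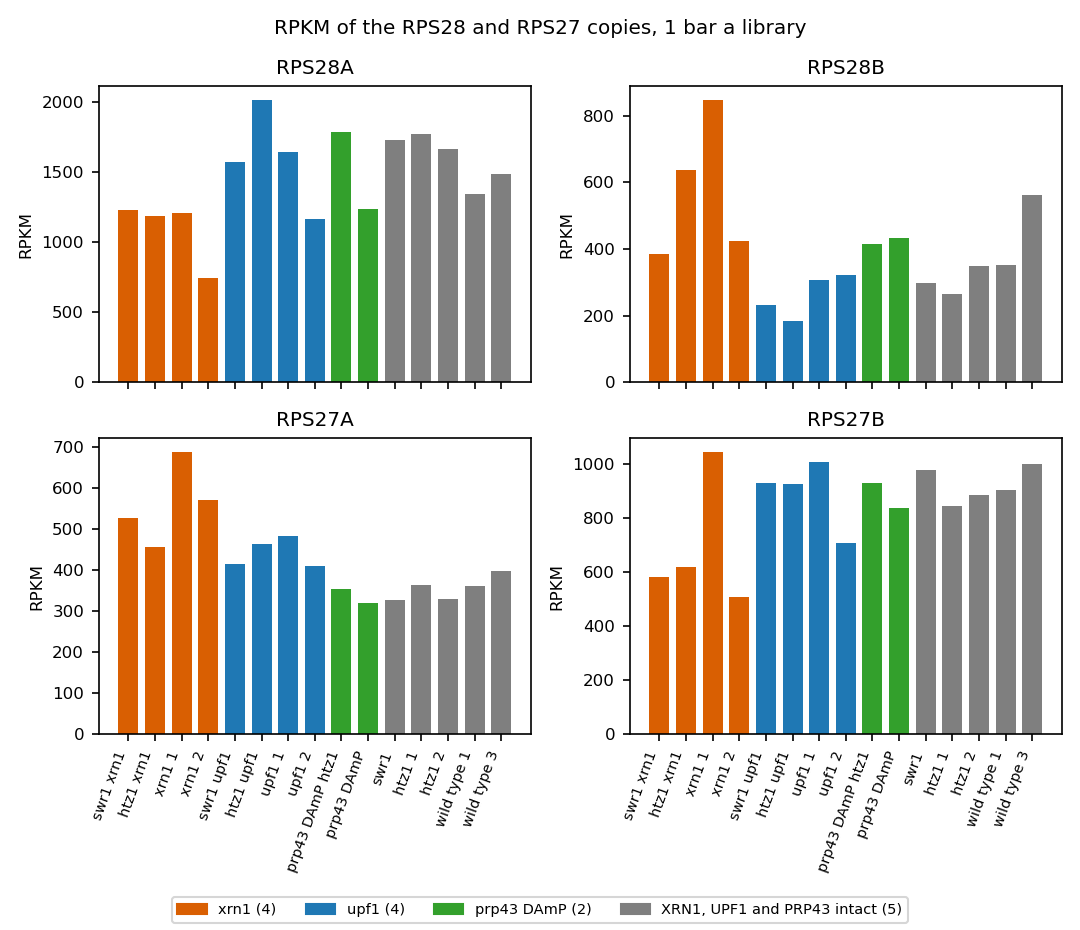
RPKM of RPS28A, RPS28B, RPS27A and RPS27B in each of the 15 libraries, 1 bar a library from 0, coloured by background. RPS28B is highest in xrn1 1 (847 RPKM) and lowest in htz1 upf1 (183 RPKM), and all 4 xrn1 bars of RPS27A but htz1 xrn1 are taller than every other bar of that gene.

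Loss of HTZ1 changed no small-subunit message past the test. With 4 backgrounds averaged (5 htz1 libraries set against 7 that carry HTZ1), 0 of 55 genes were called by limma. Of all genes 1.92% were called (0.446% higher and 1.48% lower). On simulated data this fit called 41.8% of genes changed 1.5-fold and 80.6% of those changed 2-fold. An unadjusted p under 0.05 by limma was found for 6 of the 55 genes and for 1153 of all 6495. The median log2 change was -0.17 for the 55 genes and -0.02 for all genes, and 50 of the 55 were below 0. The 35 genes with introns had a median of -0.17 and the 20 without introns one of -0.17 as well. RPKM does not separate spliced from unspliced RNA, so these are levels and not splicing. RPS28A had the highest averaged value. It was at 1185 RPKM in htz1 xrn1 against 1209 and 745 in xrn1, at 2015 in htz1 upf1 against 1644 and 1169 in upf1, at 1787 in prp43 DAmP htz1 against 1234 in prp43 DAmP, and at 1772 and 1662 in htz1 against 1341 and 1485 in the wild type. It lay above both reference libraries in htz1 upf1 and in both htz1 libraries and above the single one in prp43 DAmP htz1, while htz1 xrn1 lay between the xrn1 libraries. Its averaged log2 change was 0.40 ± 0.14 SE, with an adjusted p of 0.181 by limma. RPS22B was lowest (-0.44 ± 0.17 SE, adjusted p = 0.203 by limma), with 91.5 RPKM in htz1 xrn1 against 229 and 156 in xrn1, 152 in htz1 upf1 against 198 and 176 in upf1, 229 in prp43 DAmP htz1 against 278 in prp43 DAmP, and 176 and 219 in htz1 against 189 and 273 in the wild type.

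After RPS22B came RPS21A (-0.38), RPS31 (-0.37) and RPS28B (-0.37), and after RPS28A came RPS29A (0.16) and RPS15 (0.08), none of them called. By background, the median of the 55 genes was -0.12 in htz1 against the wild type, -0.36 in htz1 xrn1 against xrn1, -0.26 in htz1 upf1 against upf1 and 0.17 in prp43 DAmP htz1 against prp43 DAmP. In the last of these 51 of 55 genes were higher. The values depend on single libraries: htz1 xrn1 differed by -0.61 from xrn1 1 and by -0.12 from xrn1 2, and htz1 2 by 0.13 from wild type 1 and by -0.21 from wild type 3. Without the libraries rich in ribosomal DNA the median of the 55 genes was -0.09 and that of all genes -0.12. With a common median log ratio 39.2% of all calls were higher genes, in place of 23.2%, and again limma called 0 small-subunit genes (1 at an unadjusted p under 0.05). The 20 general stress genes had a median of 0.38, and 0 were called.

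The interactions asked whether the effect of HTZ1 loss differs between backgrounds. For htz1 in xrn1 cells against htz1 in wild-type cells, 0 of 55 genes were called by limma, 0 had an unadjusted p under 0.05, and 0% of all genes were called, with a median of -0.23 (all genes 0.05). RPS22B (-0.83 ± 0.44 SE), RPS31 (-0.64) and RPS1B (-0.60) were lowest, and RPS28B (0.64), RPS11B (0.32) and RPS11A (0.18) highest. For upf1 cells the counts were again 0 called by limma, 0 with an unadjusted p under 0.05 and 0% of all genes, with a median of -0.12 (all genes 0.24). RPS7A (-0.53 ± 0.53 SE) and RPS31 (-0.46) were lowest, and RPS29A (0.44), RPS26B (0.35) and RPS27B (0.27) highest. For RPS7A the standard error was as large as the difference, and a difference of this size was not detectable in this design.

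**Figure D5:**
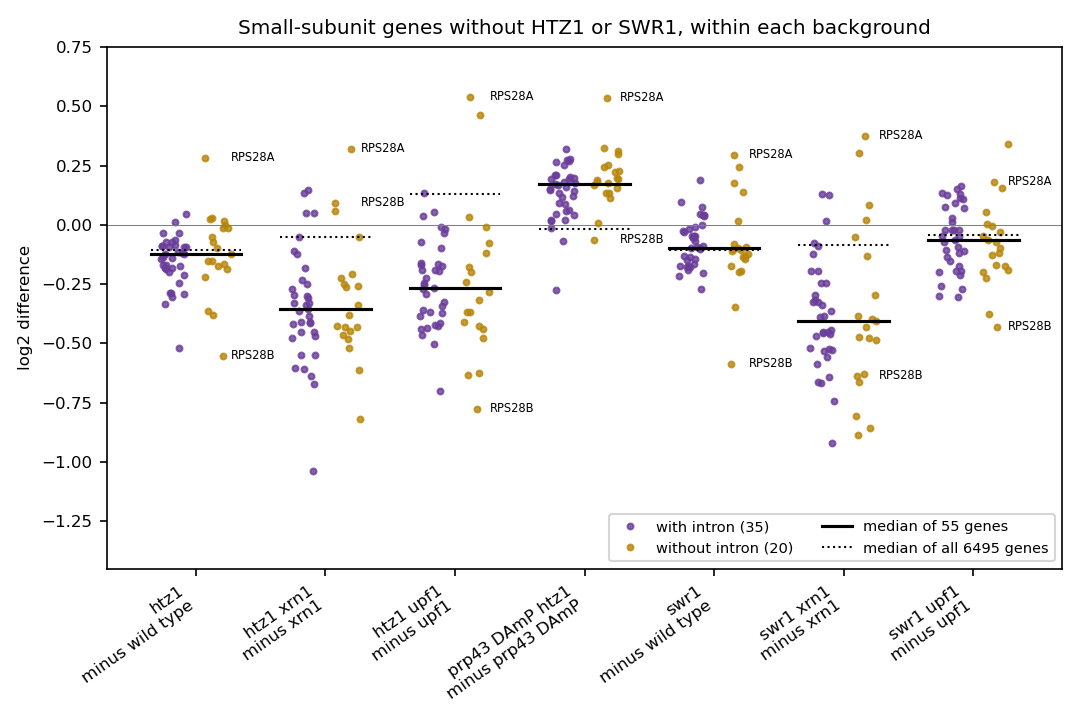
The log2 difference of each of the 55 genes in libraries without HTZ1 or without SWR1 from those of the same background with it, for genes with an intron (purple) and without (gold). Solid lines are the medians of the 55 genes, from -0.41 (swr1 xrn1 minus xrn1) to 0.17 (prp43 DAmP htz1 minus prp43 DAmP), and dotted lines are the medians of all genes. RPS28A lies at the top in 6 of the 7 columns.

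Loss of SWR1 likewise gave no call. With 3 backgrounds averaged (3 swr1 libraries set against 6 that carry SWR1), 0 of 55 genes were called by limma. Of all genes 4% were called (0.477% higher and 3.53% lower). On simulated data this fit called 19.4% of genes changed 1.5-fold and 59.7% of those changed 2-fold, so such changes could be missed. An unadjusted p under 0.05 by limma was found for 2 of the 55 genes and for 1205 of all 6495. The median log2 change was -0.19 for the 55 genes and -0.08 for all genes. RPS28B was lowest (-0.55 ± 0.22 SE, adjusted p = 0.229 by limma), with 385 RPKM in swr1 xrn1 against 847 and 424 in xrn1, 233 in swr1 upf1 against 306 and 323 in upf1, and 296 in swr1 against 353 and 563 in the wild type, below both libraries in each background. RPS31 (-0.45) and RPS7A (-0.41) followed, and RPS28A (0.28), RPS29A (0.22) and RPS15 (0.12) were highest. By background the median of the 55 genes was -0.10 in swr1 against the wild type, -0.41 in swr1 xrn1 against xrn1 and -0.07 in swr1 upf1 against upf1. All 3 swr1 libraries were rich in ribosomal DNA and of the MATalpha kind, and the ribosomal DNA content cannot be told apart from the deletion. Wild type 1 shares the mating type but not the ribosomal DNA content. Against wild type 1 the median of swr1 was 0.08 and against wild type 3 it was -0.27.

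Compared directly over 3 backgrounds, the htz1 and swr1 deletions (4 libraries against 3) differed in 0 of 55 genes by limma. Of all genes 0.4% were called (0.216% higher and 0.185% lower). An unadjusted p under 0.05 by limma was found for 0 of the 55 genes and for 634 of all 6495. On simulated data this fit called 1% of genes changed 1.5-fold and 28.4% of those changed 2-fold, so such changes could be missed. The median, htz1 minus swr1, was -0.05 for the 55 genes and 0.07 for all genes. RPS22B (-0.33 ± 0.15 SE), RPS7B (-0.29) and RPS21A (-0.23) were lowest and RPS28B (0.13), RPS28A (0.09) and RPS25A (0.07) highest.

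The prp43 DAmP allele, with and without HTZ1 (2 libraries against 4), gave no call either. By limma 0 of 55 genes were called, 0 had an unadjusted p under 0.05, and 0% of all genes were called. On simulated data this fit called 0.5% of genes changed 1.5-fold and 21.9% of those changed 2-fold, so such changes could be missed. The median log2 change was 0.03 for the 55 genes and -0.07 for all genes. RPS22B was highest, with 278 RPKM for prp43 DAmP alone and 229 with HTZ1 also deleted, against 176 and 219 RPKM in htz1 and 189 and 273 in the wild type (log2 change 0.26 ± 0.20 SE, adjusted p = 0.999 by limma). RPS23B (0.23) and RPS28B (0.20) followed, and RPS29A (-0.22), RPS29B (-0.18) and RPS7B (-0.18) were lowest. Of 72 ribosome biogenesis factors none was called, with a median of -0.61. The count over all genes depended on the model. With the replicate block, which left 1 residual degree of freedom, limma called 645 of all 6495 genes (58 higher and 587 lower). Of the 55 genes 0 were called there, and 9 had an unadjusted p under 0.05 by limma.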

How the data were processed

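RNA-seq libraries of 15 yeast samples of 11 genotypes were used as 1 table of RPKM. The authors sequenced rRNA-depleted RNA and aligned it with STAR 2.4.0 to sacCer3, after base calling with CASAVA, per the submitters' processing notes. The RPKM values are as deposited; no source used here gives the counting tool, the annotation or whether strand was used. Low values came out as whole reads (within 0.1 read for 99.7 to 100% of them) only with gene length including introns. Columns named by genotype without a number were taken as replicate 1, and 1 column that matched no sample was not used. Of 6662 entries, 3 had no distinct name.

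A filter kept 6495 genes averaging 1 RPKM or more. The test was that of limma 3.58.1 (R 4.3.3) on log2(RPKM + 1), with a trend on mean level and Benjamini-Hochberg adjustment over all genes, at 0.05. On this scale the change of low genes is understated. Losses were fitted additively over backgrounds; interactions came from 1 mean per genotype over 15 libraries. The additive fits were tested on simulated data, and the interactions were not. Genes called in any comparison are named, with up to 3 of the highest and lowest where few or none were. Members, lists and tests were chosen with earlier results of these data known. Alternatives were other pseudocounts (0.1 and 5), filters (10 RPKM or none), variance trend, model, median scaling, the replicate block and each library left out. Values of some single members are not reported here, though all 55 enter the counts and medians.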

Additional observations from a re-analysis of the deposited data

Results flagged for a closer look

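The median difference of the 55 small-subunit genes with the htz1 deletion had opposite signs between backgrounds. Their median log2 difference was -0.36 in htz1 xrn1 minus xrn1 and -0.26 in htz1 upf1 minus upf1, but 0.17 in prp43 DAmP htz1 minus prp43 DAmP. Each rests on 1 library with the deletion, against 2 for xrn1 and upf1 and 1 for prp43 DAmP. The median was -0.61 against xrn1 1 and -0.12 against xrn1 2, and -0.37 against upf1 1 and -0.15 against upf1 2. Minus the median of all genes, the 3 values were -0.31, -0.39 and 0.19, beside a replicate SD of 0.359 for the value of 1 library. The difference between these backgrounds was not tested.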

How the results depend on the processing

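Of the counts of called genes, 136 values under an alternative stayed within 1.5 times the reported count and 12 did not. The 136 include every comparison with a reported count of 0, where each alternative also gave 0 of the 55 genes. Of medians and levels, 148 moved by less than the replicate SD and 5 by more. For the median of the 55 genes minus that of all genes this SD was 0.359 (log2). That exceeds the size reported for HTZ1 loss (-0.15), SWR1 loss (-0.11), htz1 against swr1 (-0.12) and prp43 DAmP (0.10). A change of sign could count as small there, as for HTZ1 loss without the libraries rich in ribosomal DNA (0.0285). With median scaling, RPS27A and RPS28B were at -0.34 each without XRN1. RPS27A was at -0.038 and RPS29A at -0.023 without UPF1, and RPS27A was at -0.29 in xrn1 minus upf1. Also with median scaling, 7 of the 55 genes were called without UPF1, beside 2600 of all 6495 genes. Without UPF1, 0 genes were called in the 15-library model (limma) and 0 without the libraries rich in ribosomal DNA, an alternative chosen after seeing the data, and 0 to 10 with 1 library left out. Between xrn1 and upf1, 5 were called without the libraries rich in ribosomal DNA and 25 to 51 with 1 library left out. That alternative could not be fitted for SWR1 loss, htz1 against swr1 and the upf1 interaction. With 1 library left out, the htz1 minus swr1 difference ran from -0.0057 to 0.10 for RPS25A, from -0.032 to 0.15 for RPS28A and from -0.13 to 0.33 for RPS28B, and that of prp43 DAmP from -0.041 to 0.45 for RPS28B. The median of the 55 genes minus that of all genes ran from -0.59 to 0.090 in the xrn1 interaction and from -0.72 to -0.0041 in the upf1 one, where htz1 xrn1 and htz1 upf1 could not be left out. By exon length the median level was 1694 RPKM. The cause of these shifts was not tested.

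Replicate 1 minus 2 correlated over genes at -0.273 between htz1 and xrn1, 0.129 between htz1 and upf1 and 0.187 between xrn1 and upf1. The wild type, numbered 1 and 3, was not in this check, which therefore cannot exclude groups of libraries processed together. Median log2 differences of first minus second library over all genes were 0.342 (wild type), 0.288 (htz1), 0.038 (xrn1) and 0.068 (upf1). The log2 ratio of RPS7A over RPS7B was 1.48 to 1.69 in wild type 3, htz1 2 and the prp43 DAmP libraries. It was 0.78 to 0.97 in wild type 1, htz1 1 and swr1. The part of such groups in the results was not tested. With the replicate block, 43 of the 55 genes were called without XRN1, 3 without UPF1, 46 between xrn1 and upf1 and 0 elsewhere (limma). The interaction medians under the block were -0.67 (xrn1) and -0.73 (upf1), and in the upf1 one RPS26B was at -0.013, RPS27B at -0.29 and RPS29A at -0.10.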
